A study of Homo sapiens with 60 samples.

Results

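HT29 cells, an established line from a human colorectal adenocarcinoma, were exposed for 24 h to a hot-water extract of Astragali Radix, and RNA from cells at 500 µg/mL was set against RNA from cells at 20 µg/mL. Each dose had 3 libraries, so 6 of the 60 libraries of the series entered the comparison, and all 16356 expressed genes were tested. The spread used in each test was pooled over the 57 libraries of the 19 groups with 3 libraries. Libraries at 100 µg/mL (3) gave a midpoint, and the solvent vehicle (3 libraries, dimethyl sulfoxide, stated as 0.1% by the sample labels and as 2% by the design text) gave a background. Nothing was edited or transfected in these cells, and a single cancer line stands in for the intestinal epithelium. The extract is a mixture of unnamed constituents. Because the labels do not tie replicates to separate cultures, the variation behind each p-value is that among libraries and could be technical.

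Acetyl-CoA is the building block of both fatty acids and sterols. The sterol regulatory element-binding proteins (SREBPs) are membrane-bound transcription factors that are cut free when sterols run low, and they turn on the enzymes of both pathways. NRF2 is a transcription factor released from its inhibitor KEAP1 by electrophiles and oxidants, and its human targets include the aldo-keto reductases AKR1B10 and AKR1C2. ACSS2 makes acetyl-CoA from acetate in the cytosol and nucleus, and SCD puts the first double bond into newly made saturated fatty acids.

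At an adjusted p under 0.05, 12 of 16356 genes were called (0.0734%), 3 higher (0.0183%) and 9 lower (0.055%) at 500 than at 20 µg/mL, by edgeR's quasi-likelihood test with Benjamini-Hochberg adjustment over all genes. ACSS2 and SCD fell, AKR1B10 rose, and AKR1C2 had a higher estimate that missed the threshold. At an unadjusted p under 0.05 there were 918 genes. A fit of the 6 compared libraries alone, without the pooled spread, called 0 genes. In bulk RNA, fewer cells of a kind and less RNA per cell cannot be told apart.

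The start regions of ACSS2, SCD and AKR1C2 are shown because these genes mark the comparison. Each line gives the 250 bases before the annotated start, 5′ to 3′ on the gene's strand, from RefSeq on GRCh38.p14. These starts differ from the outer gene ends in the gene coordinates given below. The ACSS2 and AKR1C2 windows lie inside those gene spans, and the SCD window overlaps the start of its span. Capitals mark CCAAT, the box bound by the factor NFY, or its reverse complement; no match overlapped another.
ACSS2 (chr20:34874739-34874988, plus strand, the first listed of 2 starts): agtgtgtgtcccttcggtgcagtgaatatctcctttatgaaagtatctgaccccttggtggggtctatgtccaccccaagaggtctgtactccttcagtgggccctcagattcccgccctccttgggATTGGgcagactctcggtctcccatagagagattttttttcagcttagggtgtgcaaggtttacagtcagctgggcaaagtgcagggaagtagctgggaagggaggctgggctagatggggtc
SCD (chr10:100346983-100347232, plus strand): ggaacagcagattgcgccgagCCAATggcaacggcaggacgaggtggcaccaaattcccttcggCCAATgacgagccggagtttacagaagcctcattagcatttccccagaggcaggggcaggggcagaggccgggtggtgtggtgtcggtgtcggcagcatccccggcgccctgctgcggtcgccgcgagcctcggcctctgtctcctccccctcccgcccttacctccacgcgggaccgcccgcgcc
AKR1C2 (chr10:5003858-5004107, minus strand): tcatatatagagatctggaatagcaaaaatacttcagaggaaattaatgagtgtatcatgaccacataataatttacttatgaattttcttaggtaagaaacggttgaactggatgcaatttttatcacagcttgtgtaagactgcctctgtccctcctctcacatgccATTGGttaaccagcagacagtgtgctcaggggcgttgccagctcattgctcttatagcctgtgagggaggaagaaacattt

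Motifs were searched on both strands with no mismatch. ACSS2 held a reverse CCAAT 123 to 119 bases before the start, SCD held forward matches at 229 to 225 and at 186 to 182, and AKR1C2 held a reverse match at 81 to 77. CCAAT occurs in 32% of the 35116 windows of this length in the table. The sterol element TCACNCCAC (0.883% of windows), the E-box CACGTG (6.34%) and the antioxidant element TGACNNNGC (10.9%) had no match in these 3 windows. Their absence applies to the windows shown and not to other start regions of the same genes. Of the 48 genes on the fatty acid and cholesterol synthesis lists, 41 had a window, and 27 of these (65.9%) held CCAAT in at least 1, against 37% of the 27305 genes in the table. The sterol element was found in 2 of the 41 (4.88%), against 1.09% of genes. A match of letters is a description and not a shown binding site.

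ACSS2 (ENSG00000131069, GRCh38 chromosome 20, 34872146 to 34927962) had 22.0, 21.6 and 19.6 CPM, that is counts scaled to an equal library total, at 500 µg/mL, against 31.5, 31.1 and 29.4 CPM at 20 µg/mL. Every library at 500 µg/mL lay below every library at 20 µg/mL. The log2 difference was -0.54 ± 0.08 (SE, n = 3 libraries per dose, adjusted p = 0.001 by edgeR), or 0.686 times the level at 20 µg/mL. Libraries at 100 µg/mL had 29.1, 26.2 and 25.0 CPM, between the other doses in the mean. The vehicle libraries had 23.6, 27.6 and 26.3 CPM, which is below all 3 libraries at 20 µg/mL and above all 3 at 500 µg/mL. GGT7, named after its values were seen, overlaps ACSS2 on the opposite strand, and with no strand setting known for the counting their reads cannot be told apart; its own log2 difference was -0.44 ± 0.15 (adjusted p = 0.56 by edgeR).

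SCD (ENSG00000099194, chromosome 10, 100347124 to 100364834) had 1720, 1630 and 1610 CPM at 500 µg/mL, against 2010, 2000 and 1840 CPM at 20 µg/mL. The doses did not overlap, and the gap between them was 0.847-fold, a log2 difference of -0.24 ± 0.04 (adjusted p = 0.011 by edgeR, n = 3 each). Midpoint libraries at 100 µg/mL had 1890, 1890 and 1790 CPM, and vehicle libraries had 1820, 1890 and 1850 CPM. All 3 vehicle libraries again lay above the 500 µg/mL libraries.

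AKR1B10 (ENSG00000198074, chromosome 7, 134527592 to 134541408), an enzyme that reduces retinal and other aldehydes, had 104, 108 and 107 CPM at 500 µg/mL, against 84.5, 92.8 and 85.3 CPM at 20 µg/mL. It rose by 0.28 ± 0.06 on the log2 scale (adjusted p = 0.022 by edgeR). AKR1C2 (ENSG00000151632, chromosome 10, 4987400 to 5018031), which reduces dihydrotestosterone and other ketosteroids, had 13.8, 14.2 and 14.4 CPM at 500 µg/mL, against 9.57, 10.4 and 11.1 CPM at 20 µg/mL. Its groups did not overlap either, and its log2 difference was 0.46 ± 0.10, but the adjusted p was 0.056 by edgeR. At 100 µg/mL it had 10.0, 9.66 and 11.0 CPM, so the mean there did not lie between the other doses. Reads of AKR1C2 can also match AKR1C1 and AKR1C3, whose sequences are near-identical, so its level relative to theirs is uncertain.

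**Figure D1:**
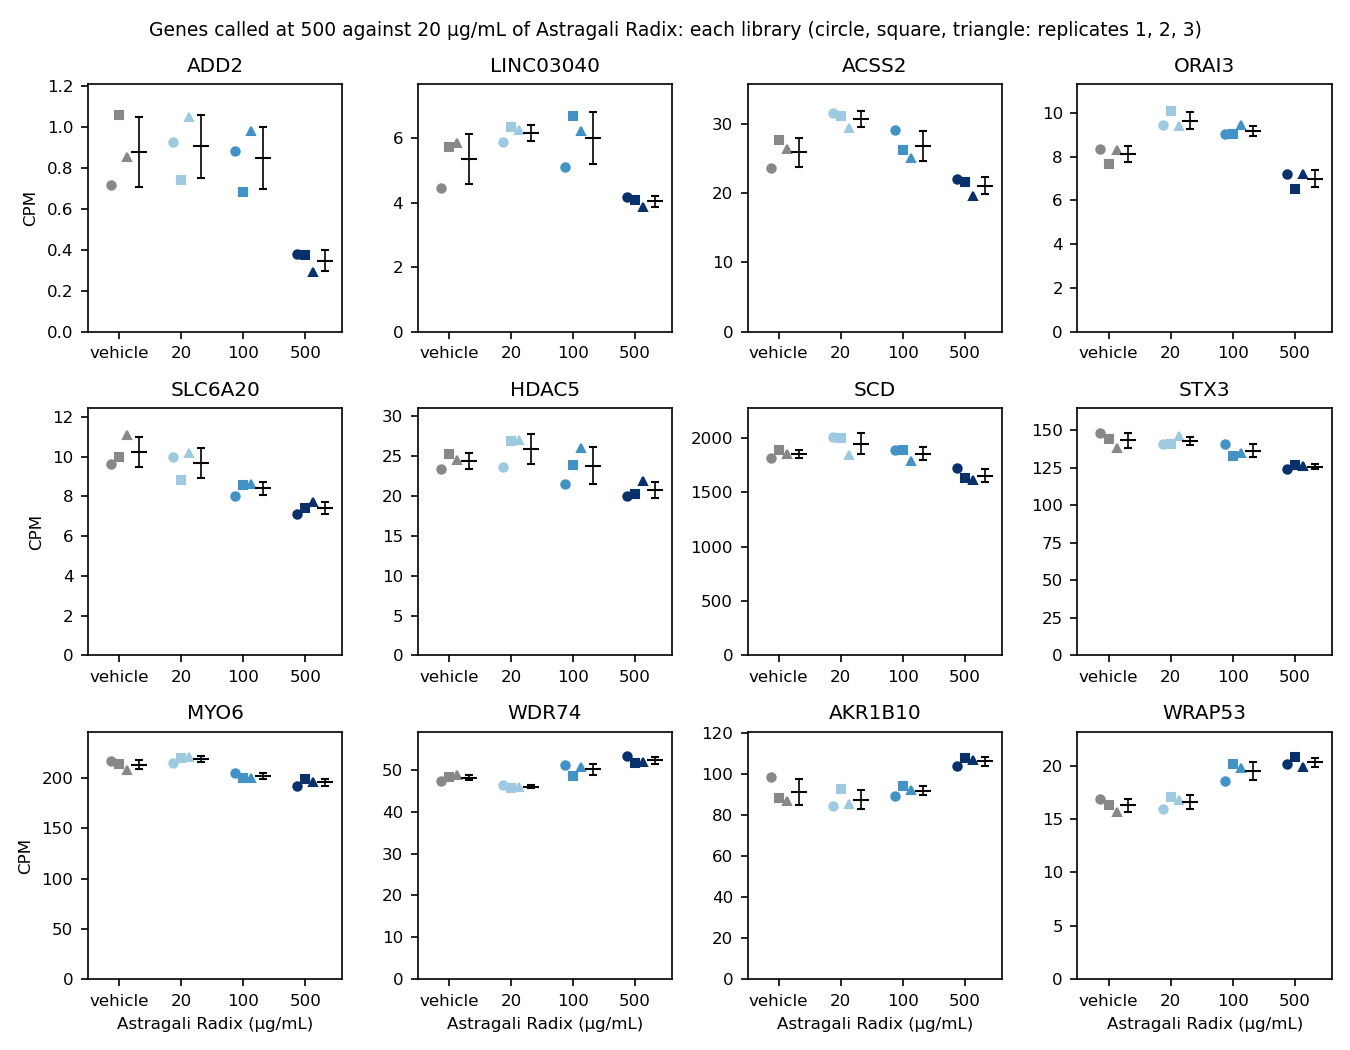
CPM of the 12 called genes in each library (circle, square and triangle are replicates 1, 2 and 3), with vehicle, 20, 100 and 500 µg/mL from left to right and the mean ± SD beside each group; every y axis starts at 0. The 500 µg/mL libraries do not overlap the 20 µg/mL libraries in any of the 12, and the mean at 100 µg/mL lies between theirs in all 12. The genes were called for the gap between those doses, which favours a middle level at 100 µg/mL. A graded response to dose was not tested.

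The other 7 genes called lower are on none of the lipid lists. LINC03040 (chromosome 6, 44000580 to 44005958), an RNA gene by its current symbol that GENCODE release 29 lists as protein coding, had 4.19, 4.10 and 3.86 CPM at 500 µg/mL, against 5.90, 6.36 and 6.25 CPM at 20 µg/mL. The log2 difference was -0.60 ± 0.11 (adjusted p = 0.011 by edgeR). ORAI3 (chromosome 16, 30949066 to 30956461), a subunit of store-operated calcium channels, had 7.23, 6.54 and 7.22 CPM at 500 µg/mL, against 9.46, 10.1 and 9.40 CPM at 20 µg/mL. It fell by 0.46 ± 0.09 on the log2 scale (adjusted p = 0.011 by edgeR). Its vehicle libraries, at 8.36, 7.69 and 8.33 CPM, lay between the doses.

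SLC6A20 (chromosome 3, 45755450 to 45796535), a transporter of proline and related imino acids, had 7.09, 7.41 and 7.72 CPM at 500 µg/mL, against 10.0, 8.83 and 10.2 CPM at 20 µg/mL (log2 difference -0.39 ± 0.07, adjusted p = 0.013 by edgeR). HDAC5 (chromosome 17, 44076746 to 44123702), a class IIa histone deacetylase, had 20.0, 20.3 and 21.9 CPM at 500 µg/mL, against 23.7, 26.9 and 27.1 CPM at 20 µg/mL (log2 difference -0.32 ± 0.07, adjusted p = 0.025 by edgeR). In both genes every library at 500 µg/mL was below every library at 20 µg/mL; the nearest libraries of SLC6A20 had 7.72 CPM at 500 µg/mL and 8.83 CPM at 20 µg/mL.

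STX3 (chromosome 11, 59713456 to 59805882), a syntaxin of apical membrane delivery, averaged 125 ± 1.24 CPM at 500 µg/mL and 143 ± 2.55 CPM at 20 µg/mL (SD, n = 3 each). MYO6 (chromosome 6, 75749192 to 75919537), the myosin that walks toward the minus end of actin filaments, averaged 196 ± 3.66 CPM at 500 µg/mL and 219 ± 3.06 CPM at 20 µg/mL. These were small shifts in tightly grouped libraries, -0.19 ± 0.04 for STX3 and -0.16 ± 0.03 for MYO6 on the log2 scale (adjusted p = 0.022 for both by edgeR). ADD2 (chromosome 2, 70607618 to 70768225), the beta subunit of the membrane skeleton protein adducin, had the largest fold change of the 12 and the lowest counts. It had 0.381, 0.373 and 0.290 CPM at 500 µg/mL, against 0.926, 0.743 and 1.05 CPM at 20 µg/mL, a log2 difference of -1.36 ± 0.29 (adjusted p = 0.038 by edgeR).

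Besides AKR1B10, the genes called higher were WRAP53 and WDR74. WRAP53 (chromosome 17, 7686071 to 7703502), a Cajal body protein of the telomerase complex, had 20.2, 20.8 and 19.9 CPM at 500 µg/mL, against 15.9, 17.1 and 16.8 CPM at 20 µg/mL (log2 difference 0.29 ± 0.06, adjusted p = 0.022 by edgeR). A gene on the opposite strand overlaps it, with a log2 difference of 0.03 ± 0.04. WDR74 (chromosome 11, 62832342 to 62841809), a factor of large ribosomal subunit assembly, had 53.3, 51.7 and 51.9 CPM at 500 µg/mL, against 46.3, 45.6 and 45.9 CPM at 20 µg/mL. Its log2 difference was 0.19 ± 0.04 (adjusted p = 0.025 by edgeR), and the groups lay further apart than their own ranges.

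With AKR1C2, the next genes by unadjusted p at a mean log2 CPM of at least 1 were not called. CDC6, which licenses origins of replication, averaged 89.6 ± 4.47 CPM at 500 µg/mL and 79.0 ± 2.45 CPM at 20 µg/mL (log2 difference 0.18 ± 0.04, adjusted p = 0.057 by edgeR). CHAF1A, the large subunit of the histone chaperone CAF-1, averaged 51.1 ± 1.95 CPM at 500 µg/mL and 43.6 ± 0.105 CPM at 20 µg/mL (adjusted p = 0.14 by edgeR). AHSA1, an activator of the chaperone HSP90, had a log2 difference of 0.17 ± 0.04. Lower estimates were those of DHRS2, a short-chain dehydrogenase (-0.51 ± 0.12), FNIP1, a partner of folliculin (-0.25 ± 0.06), TRIM2, a ubiquitin ligase (-0.23 ± 0.05), and SECISBP2, which serves selenocysteine insertion (-0.15 ± 0.03). Their doses did not overlap, as was so for 1557 of all genes tested (9.52%).

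Sample codes split the libraries into 2 sets, which the first principal component, holding 15.7% of the variance, largely parted. Scores ran from -29.48 to -5.39 in the first set. In the second they ran from 2.09 to 25.41, except -15.99 for replicate 2 at 500 µg/mL of Cinnamomi Cortex. Replicate 1 of every Astragali Radix dose lay in the set with the vehicle, and replicates 2 and 3 in the other, so the doses were balanced over the sets. Total counts ran from 20459346 to 29913644 in the 9 Astragali Radix libraries. Mitochondrial genes took 10.3955, 9.0223 and 9.1171% of the counts at 500 µg/mL, against 12.3714, 8.3542 and 8.5023% at 20 µg/mL, which is lower at 500 µg/mL in replicate 1 and higher in replicates 2 and 3. The cells carried the epithelial genes KRT8 (6310 ± 209 CPM at 500 µg/mL and 6390 ± 422 CPM at 20 µg/mL) and EPCAM (525 ± 14.9 CPM at 500 µg/mL and 531 ± 9.97 CPM at 20 µg/mL). Of 10 fibroblast markers 2 passed the filter on low counts, with summed levels of 1.74 to 2.74 CPM at 500 µg/mL and 1.86 to 2.72 CPM at 20 µg/mL, and of 10 leukocyte markers 3 passed, LYZ, CD14 and ITGAM, with summed levels of 1390 to 1470 CPM at 500 µg/mL and 1400 to 1440 CPM at 20 µg/mL. LYZ, the lysozyme that secretory epithelium also makes, averaged 1420 CPM at both doses, and PTPRC, the pan-leukocyte marker, did not pass.

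With the library set as a term, 23 genes were called (0.141%), 8 higher (0.0489%) and 15 lower (0.0917%), and all 12 genes above were among them. AKR1C2 (adjusted p = 0.045), CDC6 (0.006), DHRS2 (0.048), SECISBP2 (0.045) and FNIP1 (0.030) were then called by edgeR's test. MUC13, a membrane mucin, averaged 129 ± 8.22 CPM at 500 µg/mL and 151 ± 12.5 CPM at 20 µg/mL and was called lower (adjusted p = 0.036). VIM, the mesenchymal intermediate filament, is named here after its values were seen, since 1 library set its call: it had 2.35, 0 and 0 CPM at 500 µg/mL, against 0.0343, 0 and 0.0477 CPM at 20 µg/mL. It also had 6.46 CPM in replicate 1 at 100 µg/mL.

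Within the first set there is a single library per dose and no test. The log2 differences of the replicate 1 libraries were -0.52 for ACSS2, -0.23 for SCD, 0.29 for AKR1B10 and 0.53 for AKR1C2. In the second set, the means of replicates 2 and 3 differed by -0.56 for ACSS2, -0.25 for SCD, 0.27 for AKR1B10 and 0.42 for AKR1C2. All 12 called genes had the same direction in both sets. They were called on these same libraries, so the shared direction is not separate support. With the replicate 1 libraries of both doses left out, edgeR called 0 genes and 754 had an unadjusted p under 0.05; ACSS2 then had an adjusted p of 0.069 and SCD of 0.15.

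**Figure D2:**
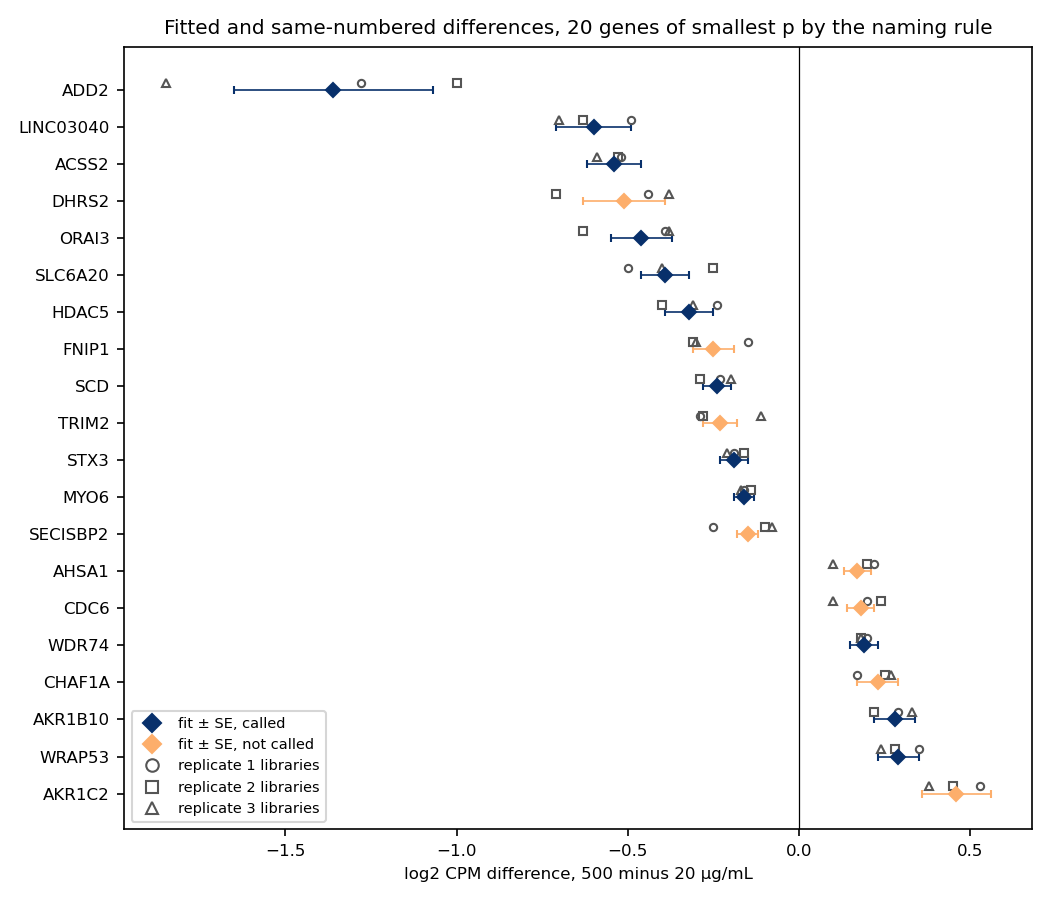
The log2 CPM difference, 500 minus 20 µg/mL, for the 20 named genes: diamonds are the fitted value ± SE over all libraries (dark where called), and open circles, squares and triangles the differences of the replicate 1, 2 and 3 libraries. All open symbols lie on the same side of 0 as their diamond, in genes picked by p from these same libraries. For ACSS2 the open symbols run from -0.59 to -0.52.

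Leaving out a single library lowered the count each time. Without replicate 1, 2 or 3 at 500 µg/mL, 5, 1 and 4 genes were called, and without replicate 1, 2 or 3 at 20 µg/mL, 3, 3 and 4. ACSS2 was called in all 6 of these fits, with log2 differences of -0.58 to -0.49 and adjusted p of 0.0033 to 0.049. ORAI3 was called in 3 of them, SCD, LINC03040 and SLC6A20 in 2 each, and AKR1B10 and HDAC5 in 1 each. STX3, MYO6, WRAP53, WDR74 and ADD2 were called in 0 of the 6, with adjusted p of 0.067 to 0.26 among them.

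Lipid synthesis genes beyond ACSS2 and SCD had small, mostly lower values. Of 26 genes on the fatty acid synthesis list, 23 were tested. Of these, 2 were called lower, beside 0.055% of all genes, and 0 were called higher. Those 2 were ACSS2 and SCD, which mark the comparison, on a list chosen with earlier results of these data known. Their count is therefore not separate support. The median log2 difference was -0.08, beside 0.00021 over all genes tested. Summed over tested members, libraries had 5000 to 5080 CPM at 500 µg/mL and 5480 to 5630 CPM at 20 µg/mL. Vehicle libraries, all in the first library set, had 5150 to 5330 CPM, between the doses. FASN, the fatty acid synthase, had 906, 940 and 941 CPM at 500 µg/mL, against 964, 1040 and 1070 CPM at 20 µg/mL, and was not called (-0.14 ± 0.07, adjusted p = 0.88 by edgeR). SREBF1, which encodes SREBP-1, had 132, 133 and 137 CPM at 500 µg/mL, against 148, 151 and 153 CPM at 20 µg/mL (-0.17 ± 0.04, adjusted p = 0.25 by edgeR). Both genes had separate doses without passing the test.

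ACSL1, which activates long-chain fatty acids, had 46.6, 49.4 and 49.0 CPM at 500 µg/mL, against 51.5, 59.5 and 59.9 CPM at 20 µg/mL (-0.23 ± 0.08, not called). ACLY, which makes acetyl-CoA from citrate and so serves the same pool as ACSS2, had 397, 406 and 387 CPM at 500 µg/mL, against 403, 402 and 398 CPM at 20 µg/mL. The ACLY values overlapped, with a log2 difference of -0.02 ± 0.04. ACACA, which makes malonyl-CoA, ELOVL6, an elongase, and ME1, a source of NADPH, had log2 differences of -0.10 ± 0.05, -0.01 ± 0.04 and 0.04 ± 0.04, and their doses overlapped too. In all, 7 of the 23 tested members (30.4%), ACSS2 and SCD among them, had every 500 µg/mL library below every 20 µg/mL library. The share of all genes was 4.92%. The reverse held for 0 members, beside 4.6% of all genes.

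None of the 22 cholesterol synthesis genes was called, yet 20 of 22 estimates (90.9%) were lower at 500 µg/mL, beside 49.8% of all genes. The median log2 difference was -0.12 and the range -0.26 to 0.11. Summed levels were 3950 to 4210 CPM at 500 µg/mL and 4300 to 4490 CPM at 20 µg/mL. In the vehicle libraries they were 3960 to 4400 CPM, overlapping both doses. At the entry of the pathway, HMGCS1 had 274, 225 and 235 CPM at 500 µg/mL, against 322, 279 and 279 CPM at 20 µg/mL (-0.26 ± 0.12, adjusted p = 0.86 by edgeR). IDI1, which converts isopentenyl diphosphate to its isomer, had 147, 129 and 139 CPM at 500 µg/mL, against 162, 150 and 159 CPM at 20 µg/mL (-0.18 ± 0.08, adjusted p = 0.86 by edgeR). Doses did not overlap in either gene.

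Further along, SQLE, the epoxidase, averaged 813 ± 65.9 CPM at 500 µg/mL and 892 ± 83.6 CPM at 20 µg/mL, and replicate 1 was the highest library at both doses. LSS, which closes the sterol rings, had a log2 difference of -0.19 ± 0.06 (adjusted p = 0.49 by edgeR, and 0.095 with the set term). CYP51A1, a demethylase of lanosterol, had -0.17 ± 0.07, and the late enzyme DHCR7 had -0.08 ± 0.05. Every library at 500 µg/mL was below every library at 20 µg/mL in 8 of the 22 (36.4%), beside 4.92% of all genes. All 3 same-numbered differences were lower in 16 (72.7%), beside 15.7% of all genes.

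Genes of sterol uptake and of SREBP control were less uniform, with 0 of 20 called and a median of -0.03. Estimates were lower in 11 of 20 (55%), beside 49.8% of all genes. Every 500 µg/mL library lay below every 20 µg/mL library in 4 (20%), beside 4.92% of all genes, and above in 0, beside 4.6%. All 3 same-numbered differences were lower in 7 (35%), beside 15.7% of all genes, and higher in 2 (10%), beside 16.5%. INSIG1, which holds the SREBP complex in the endoplasmic reticulum and is itself an SREBP target, had 183, 155 and 148 CPM at 500 µg/mL, against 213, 175 and 172 CPM at 20 µg/mL. Its doses overlapped, while each same-numbered library was lower at 500 µg/mL (-0.20 ± 0.10). SREBF2, which encodes SREBP-2, had -0.11 ± 0.04, whereas the sensor SCAP had -0.06 ± 0.05 and the protease gene MBTPS1 0.03 ± 0.04. The liver X receptor targets ABCA1 and ABCG1, which export cholesterol, both had 0.10, with SE of 0.11 and 0.14.

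Of 28 tested NRF2 targets, 1 was called higher, AKR1B10, 2 with the set term, and 0 lower. Of all genes, 0.0183% were called higher, and 0.0489% with the set term. The median log2 difference was 0.08, and 25 of 28 estimates were above 0. Estimates were lower in 10.7% of the targets, beside 49.8% of all genes. Mostly higher estimates were also seen for cytosolic ribosomal proteins (44 of 52) and for glycolysis and hypoxia response genes (21 of 26). All 3 same-numbered libraries were higher at 500 µg/mL in 14 of the NRF2 targets (50%), beside 16.5% of all genes, and lower in 0. Every library at 500 µg/mL lay above every library at 20 µg/mL in 4 (14.3%), beside 4.6% of all genes. AKR1C2, which marks the comparison, and AKR1B10 were among the 4. AKR1C3 had 42.9, 51.1 and 52.1 CPM at 500 µg/mL, against 33.9, 42.2 and 47.4 CPM at 20 µg/mL (0.25 ± 0.12, not called), and AKR1C1 had 0.14 ± 0.10. The doses overlapped in both. Summed over the 28 tested targets, levels overlapped too, at 12200 to 13300 CPM at 500 µg/mL and 11600 to 12800 CPM at 20 µg/mL. Vehicle libraries had 13100 to 13500 CPM, above all libraries at 20 µg/mL.

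NQO1, the quinone reductase, had 469, 497 and 513 CPM at 500 µg/mL, against 436, 452 and 485 CPM at 20 µg/mL (0.11 ± 0.05, adjusted p = 0.87 by edgeR). GCLC and GCLM, the subunits of the glutathione-making ligase, had 0.16 ± 0.08 and 0.08 ± 0.08, and the cystine carrier SLC7A11 had 0.00 ± 0.07. HMOX1, the inducible heme oxygenase, had 9.69, 9.32 and 9.62 CPM at 500 µg/mL, against 10.3, 9.01 and 9.78 CPM at 20 µg/mL (-0.03 ± 0.09). The members with the highest estimates were thus aldo-keto reductases, while HMOX1 and SLC7A11 had values near 0.

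**Figure D3:**
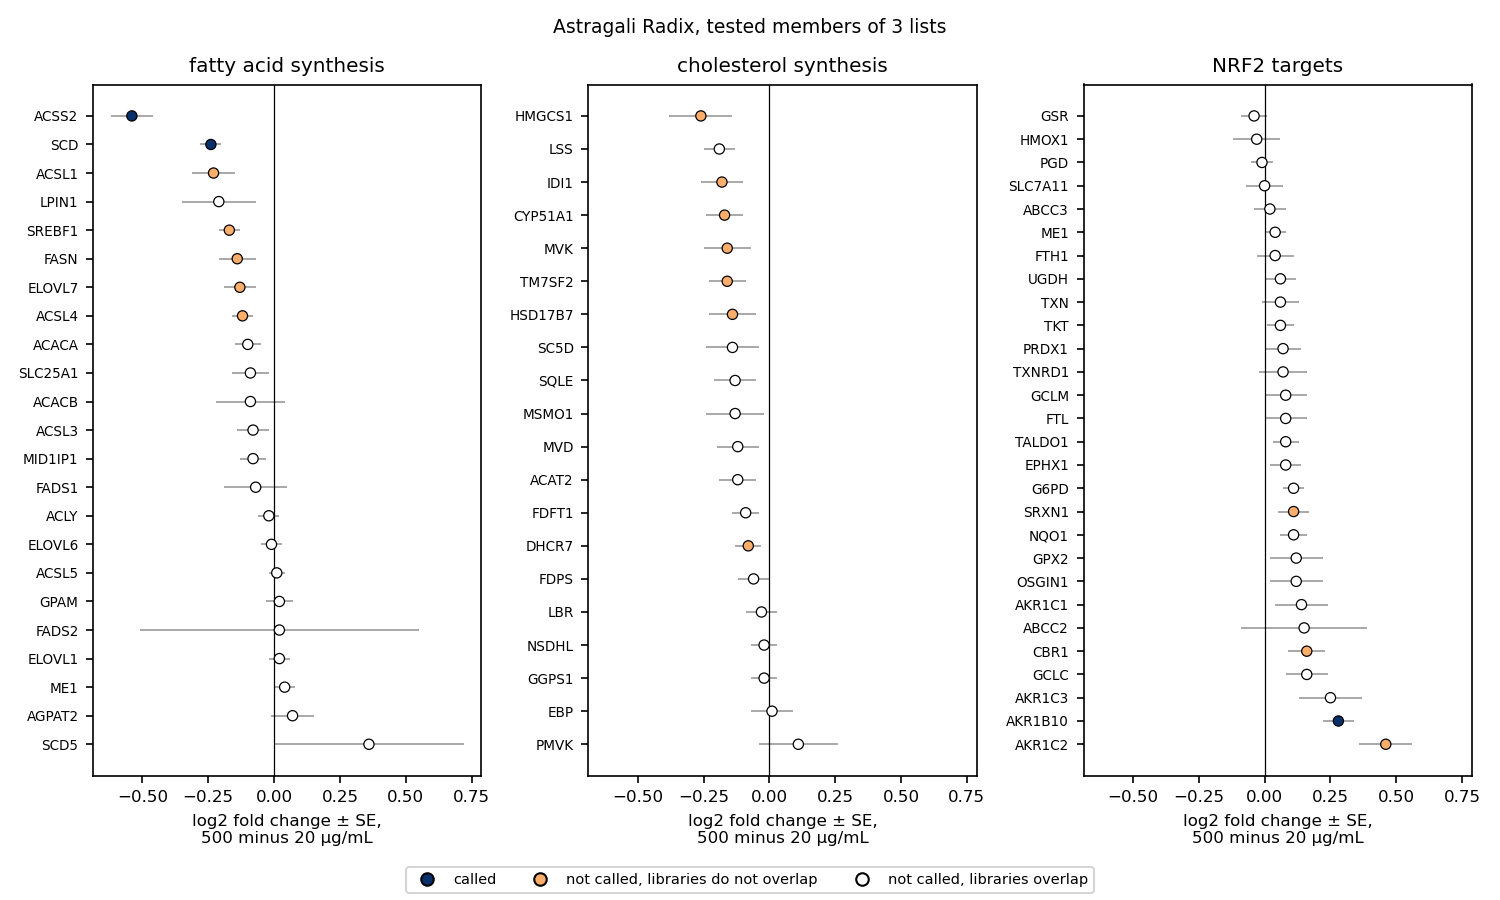
Log2 fold change ± SE, 500 minus 20 µg/mL, of tested members of the fatty acid synthesis (23 drawn), cholesterol synthesis (20 drawn) and NRF2 target (28 drawn) lists; dark points were called and orange points were not called although their libraries did not overlap. Estimates lie below 0 for 16, 18 and 3 of the members drawn, and the called members are ACSS2, SCD and AKR1B10.

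Of 45 S phase and DNA replication genes 0 were called, 43 had estimates above 0 and the median was 0.10. Estimates were lower in 4.44% of the 45, beside 49.8% of all genes. In 14 of them (31.1%) every 500 µg/mL library lay above every 20 µg/mL library, beside 4.6% of all genes. RRM2, a subunit of ribonucleotide reductase, averaged 311 ± 1.37 CPM at 500 µg/mL and 285 ± 0.951 CPM at 20 µg/mL (0.13 ± 0.03, adjusted p = 0.30 by edgeR). MCM4, of the replicative helicase, averaged 349 ± 5.16 CPM at 500 µg/mL and 331 ± 10.8 CPM at 20 µg/mL. Genes of G2 and mitosis (32 tested, 0 called) had a median of 0.04 and 1 member (3.12%) whose 500 µg/mL libraries all lay above, and MKI67, a marker of cycling cells, had 0.04 ± 0.08.

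Heat shock and endoplasmic reticulum chaperones (25 tested, 0 called) had a median of 0.07, with HSP90AA1 at 1130 ± 18.4 CPM at 500 µg/mL and 1060 ± 22.8 CPM at 20 µg/mL. In 7 of these chaperones (28%) every 500 µg/mL library lay above every 20 µg/mL library, beside 4.6% of all genes. Enzymes of the AhR and conjugation list (17 tested, 0 called) had a median of 0.08. In 5 of them (29.4%, beside 4.6% of all genes) the 500 µg/mL libraries all lay above. Interferon response genes (38 tested, 0 called) had a median of -0.08, with 29 estimates below 0 (76.3%, beside 49.8% of all genes) and 4 members (10.5%, beside 4.92% of all genes) whose 500 µg/mL libraries all lay below. Goblet and secretory genes had a median of 0.00, and MUC13 was their sole member called, with the set term. In the other 17 lists drawn in the plot of list medians, 0 members were called and medians ran from -0.04 to 0.06. Among these, members whose 500 µg/mL libraries all lay below were most frequent in glucose sensing and FOXO targets (21.1%). Autophagy and lysosome genes (20.8%) and p53 targets (20%) followed, beside 4.92% of all genes. Shares above in the same lists were 5.26%, 4.17% and 5%. Estrogen response genes had the largest share above, 18.2%, beside 4.6% of all genes.

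**Figure D4:**
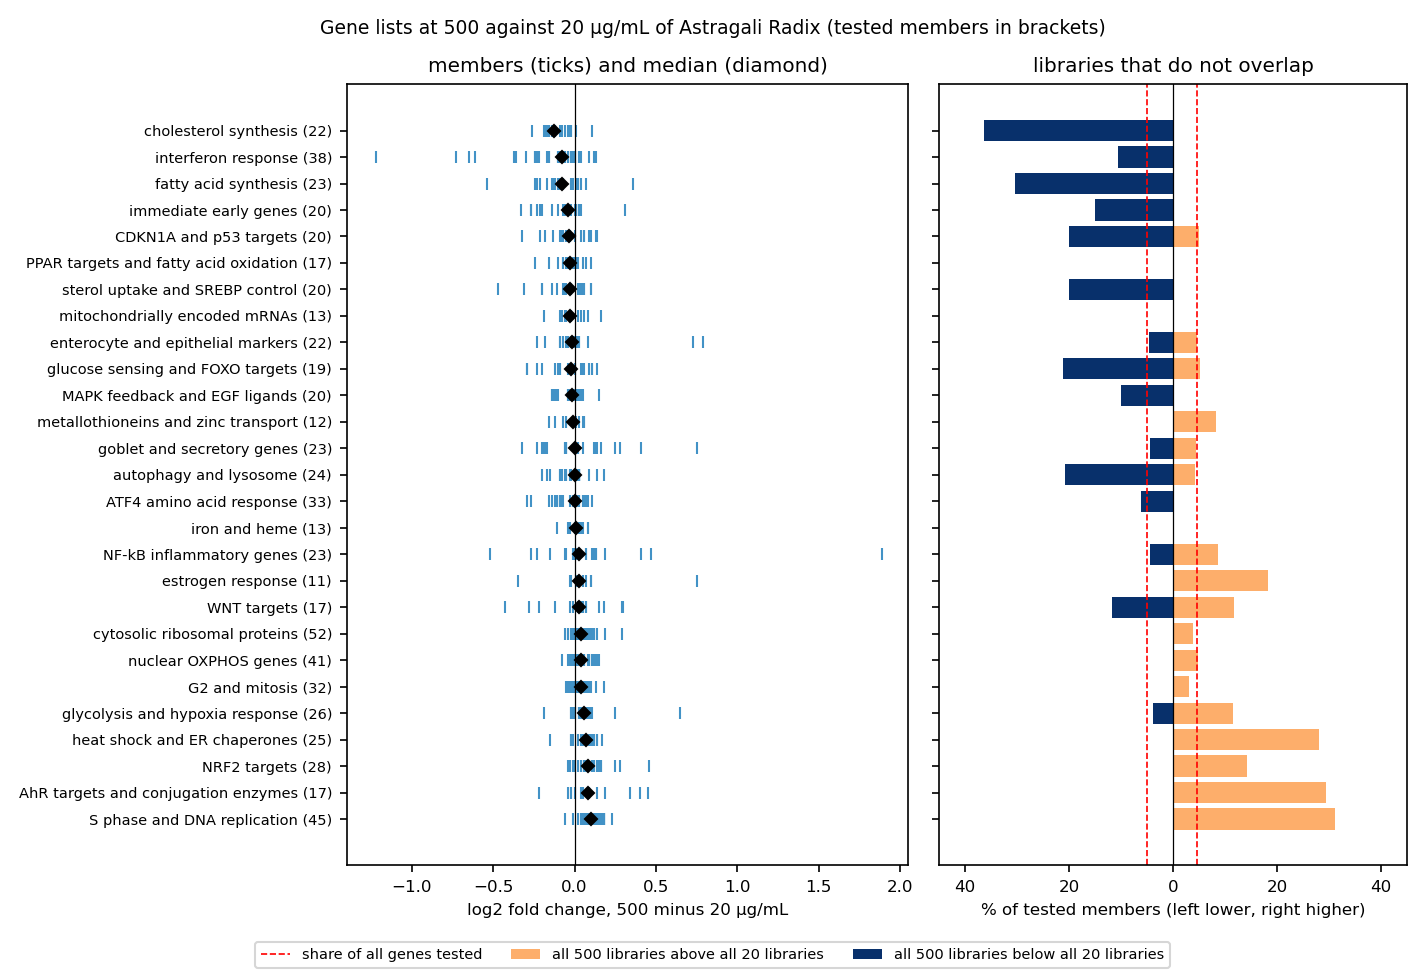
Left, log2 fold change of each tested member (ticks) and the median (diamond) for the lists with at least 10 tested genes; right, the percentage of members whose 3 libraries at 500 µg/mL all lay below (left of 0) or above (right of 0) the 3 libraries at 20 µg/mL. Red dashes mark the share of all genes, 4.92% below and 4.6% above; cholesterol synthesis reaches 36.4% below and S phase genes 31.1% above.

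The same doses of other water extracts show where Astragali Radix differed, with no library shared between the extracts. In their own 500 against 20 contrasts, 1670 genes were called in Cinnamomi Cortex (10.2%; 753 higher, 4.6%), 70 in Cnidii Rhizoma (0.428%) and 29 in Rehmanniae Radix Preparata (0.177%). Cinnamomi Cortex had its replicates in the same library sets, except that replicate 2 at 500 µg/mL lay near the first set on the first component; without it 344 differences from Cinnamomi Cortex were called. Libraries of Cnidii Rhizoma and Rehmanniae Radix Preparata lay in the first set only. The difference between the 500 against 20 contrasts was called for 420 genes against Cinnamomi Cortex (2.57%; 236 higher, 1.44%, and 184 lower, 1.12%, in Astragali Radix), 4 against Cnidii Rhizoma (0.0245%) and 3 against Rehmanniae Radix Preparata (0.0183%). With the set term these counts were 652, 6 and 5.

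Against Cinnamomi Cortex, ACSS2 and SCD were called in opposite directions in the extracts. ACSS2 fell by 0.54 on the log2 scale in Astragali Radix and rose by 0.89 ± 0.08 in Cinnamomi Cortex, a difference of -1.43 ± 0.11 (adjusted p = 3.3e-12 by edgeR). Cinnamomi Cortex libraries had 57.1, 53.2 and 60.3 CPM of ACSS2 at 500 µg/mL, against 31.7, 29.9 and 30.2 CPM at 20 µg/mL, so the level at 20 µg/mL averaged 30.7 CPM with Astragali Radix and 30.6 CPM with Cinnamomi Cortex. SCD differed by -0.69 ± 0.06 (adjusted p = 4e-11 by edgeR), with a rise of 0.46 ± 0.04 in Cinnamomi Cortex. LINC03040 differed by -1.38 ± 0.15 in the same sense.

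Over the lists, the difference from Cinnamomi Cortex was called lower for 18 of 22 cholesterol synthesis genes, among them HMGCS1 (-0.75 ± 0.17), SQLE (-0.69 ± 0.11) and LSS (-0.75 ± 0.09). It was called lower for 10 of 23 fatty acid synthesis genes, beside 1.12% of all genes. In the uptake and control list 7 of 20 were lower, among them INSIG1 (-0.78 ± 0.14), and 1 was higher, ABCA1 (0.69 ± 0.16). SREBF1 was not among them (-0.03 ± 0.06): it had -0.17 ± 0.04 in Astragali Radix and -0.14 ± 0.04 in Cinnamomi Cortex.

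Of the NRF2 targets, 18 of 28 were called lower in that difference, beside 1.12% of all genes, and 27 of the 28 were called higher in Cinnamomi Cortex itself, beside 4.6% of all genes. AKR1C2 rose there by 1.61 ± 0.09 and the difference was -1.15 ± 0.14 (adjusted p = 1.1e-07 by edgeR). AKR1B10 differed by -0.75 ± 0.08, and AKR1C1 by -1.46 ± 0.14. Genes that fell in Cinnamomi Cortex gave the largest positive differences: ANKDD1A (2.12 ± 0.31), the metallothioneins MT1X (1.84 ± 0.30), MT2A (1.33 ± 0.24) and MT1E (1.32 ± 0.20), which bind zinc and copper, and RARRES1 (1.37 ± 0.18). Metallothionein reads can match near-identical copies, so the level of each is uncertain. In Astragali Radix these 5 had log2 differences of their own of 0.13, -0.05, 0.01, -0.07 and 0.08, all within 1 SE of 0.

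All 12 called genes had an estimate of the same sign in Cnidii Rhizoma, but the matching share over all genes was not computed. Of the 12, 6 (50%) were called in the same direction, beside 0.428% of all genes called there in either direction. They were ACSS2, ADD2, AKR1B10, HDAC5, SLC6A20 and STX3, which make 8.57% of the 70 genes called in Cnidii Rhizoma. ACSS2 had 22.8, 20.9 and 19.6 CPM at 500 µg/mL of Cnidii Rhizoma, against 28.3, 26.3 and 26.4 CPM at 20 µg/mL (-0.35 ± 0.08, adjusted p = 0.03 by edgeR). The extracts differed in ACSS2 by -0.19 ± 0.12 and in SCD by -0.14 ± 0.06, neither called. The called differences were AKR1B10 (-0.67 ± 0.08), the aldehyde dehydrogenase ALDH3A1 (-0.53 ± 0.08), ME1 (-0.27 ± 0.05) and the antisense RNA VPS9D1-AS1 (-0.84 ± 0.16), each lower in Astragali Radix. Leaving out 1 Astragali Radix library gave 2 or 3 called differences.

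In Rehmanniae Radix Preparata, ACSS2 had -0.03 ± 0.08 and SCD 0.06 ± 0.04 on the log2 scale. The differences from Astragali Radix, -0.51 ± 0.12 for ACSS2 and -0.30 ± 0.06 for SCD, were not called (adjusted p = 0.13 and 0.062 by edgeR), and with the set term SCD was (0.027) and ACSS2 was not (0.071). The called differences were LINC03040 (-0.90 ± 0.16), DHRS2 (-0.93 ± 0.16) and ADD2 (-2.13 ± 0.38). ADD2 averaged 0.348 CPM at 500 µg/mL and 0.906 CPM at 20 µg/mL of Astragali Radix, and 1.22 CPM at 500 µg/mL and 0.714 CPM at 20 µg/mL of Rehmanniae Radix Preparata. Its call was lost without replicate 3 at 500 µg/mL of Astragali Radix (adjusted p = 0.064). AKR1C2 differed by -0.03 ± 0.14, having 0.46 ± 0.10 in Astragali Radix and 0.48 ± 0.10 in Rehmanniae Radix Preparata.

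The formulae Sagunja-tang and Samul-tang, made from several plants, had ACSS2 estimates of -0.27 ± 0.08 and -0.31 ± 0.08 and SCD estimates of -0.11 ± 0.04 and -0.14 ± 0.04, none of them called; 1 gene (0.00611%) was called in Sagunja-tang and 23 (0.141%) in Samul-tang. All 12 called genes had an estimate of the same sign in both formulae. Of them, 0 were called in Sagunja-tang and 3 in Samul-tang, ADD2, AKR1B10 and HDAC5, each in the same direction. Signs matched for 5 of the 12 in Cinnamomi Cortex and 9 of the 12 in Rehmanniae Radix Preparata. The share of all genes with matching signs was not computed. AKR1B10 was called in Samul-tang (0.63 ± 0.06) and not in Sagunja-tang (0.26 ± 0.06, adjusted p = 0.07 by edgeR). Differences of these formulae from Astragali Radix were not tested.

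**Figure D5:**
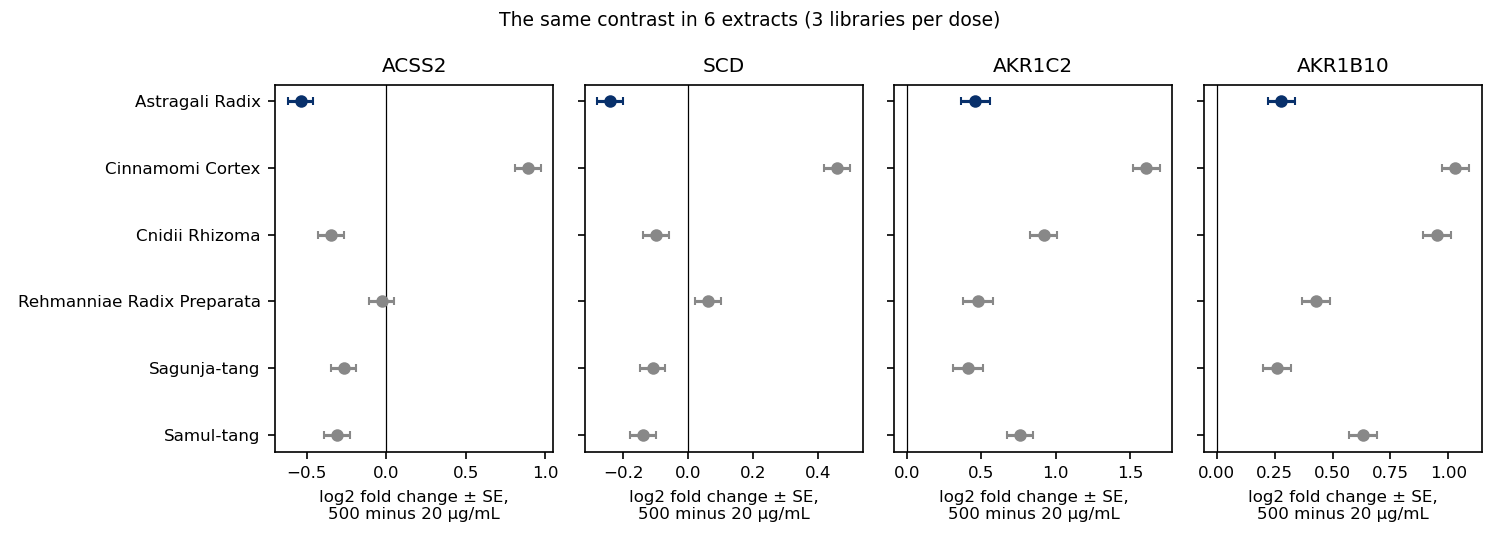
Log2 fold change ± SE, 500 minus 20 µg/mL, of ACSS2, SCD, AKR1C2 and AKR1B10 in 6 extracts, with Astragali Radix at the top in dark blue and 3 libraries per dose. ACSS2 lies at -0.54 in Astragali Radix and at 0.89 in Cinnamomi Cortex, while AKR1C2 and AKR1B10 lie above 0 in all 6.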

How the data were processed

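The authors deposited RSEM expected counts per gene, estimated counts that need not be whole and were not normalized. The tools listed, per the submitters' processing notes, are RSEM 1.3.3, STAR 2.7.3a, Trim Galore 0.6.5 and FastQC 0.11.9, with build GRCh38. Annotation release, strand setting and the role of each tool were not given in the sources used here. Per the labels' protocols, RNA went into strand-marking libraries read as pairs. Values were rounded to whole numbers (8.8% were not whole). Of 273 columns, 60 match these samples and 213 were not used. Symbols were found for 56558 identifiers in a name table and 497 in GENCODE release 29, whose coordinates are given.

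All 57 libraries of the 19 groups with 3 libraries entered edgeR 4.0.16's quasi-likelihood fit (R 4.3.3; TMM; filterByExpr, minimum count 10), with 1 coefficient per group and no block, tested on simulated counts. The 12 called genes and the next by p, to 20, were named, with lipid and NRF2 list members and the 3 highest-level members of other lists. Members, lists and rules were chosen with earlier results of these data known. Library sets were read from sample codes and the first principal component. Totals were 20459346 to 36253747 counts; CPM are TMM-scaled. Replicate pairs of Astragali Radix differed by 2.55 to 27 times the counting expectation, so none was merged. DESeq2 1.42.0, other filters, factors, library subsets and a replicate block were alternatives. Some list members are not reported here by name; they stay in the list counts.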

Additional observations from a re-analysis of the deposited data

Results flagged for a closer look

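The results here were marked because the 500 against 20 µg/mL contrast differed between Astragali Radix and another extract by edgeR's test of the difference itself (adjusted p under 0.05 over 16356 genes). Values are log2 differences, Astragali Radix minus the other extract. Against Cinnamomi Cortex they were lower for AKR1C1 (-1.46), ACSS2 (-1.43), LINC03040 (-1.38), ADD2 (-1.37), MAP1A (-1.27), AKR1C2 (-1.15), AKR1B10 (-0.75), SCD (-0.69), HDAC5 (-0.49), SLC6A20 (-0.48) and STX3 (-0.20). MAP1A, a microtubule-associated protein, had -0.26 in Astragali Radix and 1.01 in Cinnamomi Cortex. STX3 had -0.19 in Astragali Radix and 0.01 in Cinnamomi Cortex, and HDAC5 had -0.32 in Astragali Radix and 0.17 in Cinnamomi Cortex.

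They were higher for ANKDD1A (2.12), MT1X (1.84), RARRES1 (1.37), MT2A (1.33), MT1E (1.32) and CHAF1A (0.31). CHAF1A had 0.23 in Astragali Radix and -0.08 in Cinnamomi Cortex. Against Cnidii Rhizoma, VPS9D1-AS1 (-0.84), AKR1B10 (-0.67), ALDH3A1 (-0.53) and ME1 (-0.27) differed. Against Rehmanniae Radix Preparata, ADD2 (-2.13), DHRS2 (-0.93) and LINC03040 (-0.90) differed; LINC03040 had 0.30 and DHRS2 0.42 in that extract alone.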

How the results depend on the processing

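All 12 called genes kept the sign of their log2 difference in every alternative that tested them. The alternatives refit the same libraries or parts of them, so a kept sign is not separate support. The number called moved. It was 12 (3 higher, 9 lower) by the test reported and with RLE size factors, 11 at a mean CPM of at least 1, 23 (8 and 15) with the library set term, 19 (7 higher, 11 of the 12 among them) by DESeq2, and 72 (27 and 45; 6 of the 12) with no filter on low counts. Fits of the 9 Astragali Radix libraries or of the 6 compared alone called 0, with 604 and 488 genes at an unadjusted p under 0.05 and ACSS2 at an adjusted p of 0.22 and 0.35. Leaving out 1 library gave 1 to 5 calls, 0 to 1 higher and 1 to 5 lower. Leaving out replicate 1 of both doses, chosen after the data were seen, gave 0 (0 higher, 0 lower).

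Same-numbered libraries correlated at 0.326, 0.05 and 0.18 in their deviations from the dose means. Replicates 1 and 3 correlated best with their own number and replicate 2 of either dose did not. The test reported held no block, because the doses were balanced over the numbers, and the block was kept as an alternative. Without a block, variation between the numbers stays in the spread. The replicate block gave 36 calls (12 higher, 24 lower) over 57 libraries and 44 (15 and 29) over the 9. Differences from Cinnamomi Cortex, Cnidii Rhizoma and Rehmanniae Radix Preparata numbered 420, 4 and 3 by the test reported, 877, 15 and 14 with the replicate block, and 652, 6 and 5 with the set term. With no filter, 73 and 95 were called against Cnidii Rhizoma and Rehmanniae Radix Preparata. Without 1 Astragali Radix library they numbered 324 to 464, 2 to 3 and 2 to 4, and without replicate 1 of both doses 311, 2 and 2. Without replicate 2 at 500 µg/mL of Cinnamomi Cortex, 344 were called. The cause of these shifts was not tested. At 3 libraries per dose, a miss of the threshold does not show that a gene stayed the same.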
